A study of Mus musculus with 12 samples.

Results

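Gene expression in the coronary artery, which supplies the heart wall, was compared with that in the superior mesenteric artery, which leaves the abdominal aorta to feed the intestine. The comparison rests on 6 of the 12 Affymetrix arrays of the study, 3 whose labels name coronary artery and 3 whose labels name superior mesenteric artery. The other 6 arrays, 3 of ascending and 3 of descending aorta, entered the fit for the estimate of spread and are quoted as reference levels. Every array held total RNA, extracted with Trizol from a primary vessel of untreated wild-type C57BL/6 mice aged 8 weeks, of which 6 ug went into biotinylated cRNA. The study asked which expression profiles go with the embryonic origin of a vessel. Probe sets with exactly 1 gene symbol in the platform annotation were kept, and each gene was read from its probe set with the highest mean, which gave 19938 genes. Replicates are labelled biological, with no word on the number of animals behind an array. The p-values therefore measure only how far these samples spread, which may be technical.

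The wall of a large artery is built mainly of smooth muscle, whose contractile apparatus uses its own actins, myosins and calponins, lined by endothelium and wrapped in an adventitia of fibroblasts. Coronary arteries run in and on the heart muscle, whose cells hold striated sarcomeres, a calcium store that drives each beat and dense mitochondria, and their smooth muscle is known to descend largely from the epicardium. The superior mesenteric artery lies in the mesentery beside lymph nodes and pancreas, and its wall descends from mesoderm of the trunk, where Hox genes mark position along the body axis.

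Values are log2 expression, and differences are coronary minus superior mesenteric artery in log2 units ± SE, so that a difference of 1 is a doubling. A gene was called where the adjusted p of limma's moderated test was under 0.05. Array medians lay between 4.04 and 4.18. Detection calls were not used, so whether levels of 2 to 4 lie above background is not known, and a difference against such a level may understate the change. In whole-tissue RNA, fewer cells of a type and less RNA per cell cannot be told apart.

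All 3 arrays labelled coronary artery held transcripts that define heart muscle, such as Myl2 and Tnni3, and the superior mesenteric artery arrays differed among themselves. The mean over the smooth muscle contractile list was 9.10, 6.52 and 6.97 in superior mesenteric artery replicates 1, 2 and 3, so replicate 1 stood apart, against 6.08, 6.01 and 5.83 in the coronary artery arrays. With means of 7.36 in ascending and 7.04 in descending aorta, coronary artery was the lowest of the 4 vessels in this list. Genes of B cells and plasma cells averaged 4.90, 6.87 and 6.50 in the mesenteric and 4.35, 4.45 and 3.80 in the coronary arrays, and those of macrophages and antigen presentation 6.49, 8.16 and 7.68 against 6.88, 6.40 and 6.51. Pancreatic acinar genes averaged 4.47, 3.40 and 9.11 in the mesenteric arrays, so replicate 3 stood apart, against 3.50, 3.20 and 3.98 in the coronary arrays. The fibroblast list was close in both vessels, at 7.91, 7.76 and 7.53 in coronary and 8.08, 7.49 and 8.04 in superior mesenteric artery. The part that these cell types play in the results was not tested. The plot of list levels shows each array.

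**Figure D1:**
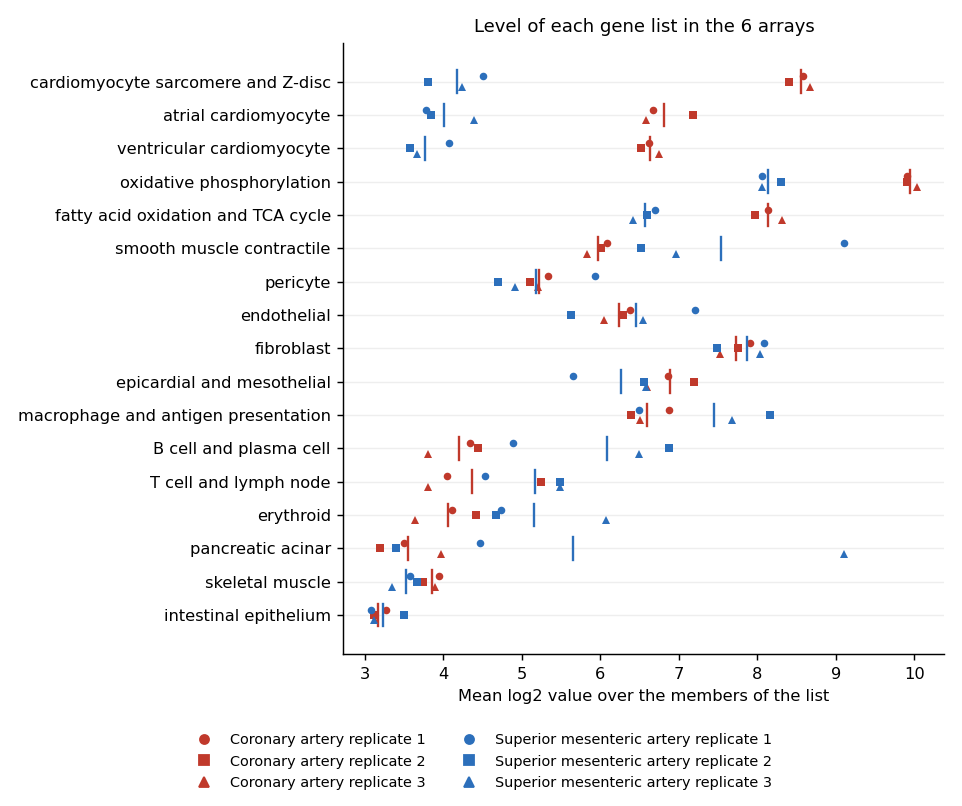
Mean log2 value over the members of 17 gene lists in the 6 arrays, with coronary artery in red, superior mesenteric artery in blue, a symbol for each replicate and a bar at the mean of the 3 arrays. The vessels do not overlap in the cardiomyocyte and mitochondrial lists. By smaller gaps they also do not overlap in the smooth muscle, B cell, erythroid, epicardial and skeletal muscle lists. Superior mesenteric artery replicate 1 lies apart in smooth muscle genes and replicate 3 in pancreatic acinar genes. Levels compare within a list, not between lists.

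Of the 19938 genes, 645 were called, or 3.24%, and most were higher in coronary artery. There were 540 genes higher in coronary artery, 2.71% of those tested, and 105 lower, 0.527% of those tested. At an unadjusted p under 0.05 there were 2946. Over all genes the median difference was -0.02. The called genes had a median difference of 1.60 in the higher and -1.09 in the lower direction, and differences above 8-fold were found in 78 higher and 4 lower genes. In all 645 called genes the 3 arrays of each vessel did not overlap, which was also so for 11.3% of all genes with coronary artery above and 11.1% with it below. Without ascending aorta replicate 1, whose B cell list averaged 7.86, the counts were 835 and 457. Leaving out coronary artery replicate 3 gave 295 and 19, and leaving out superior mesenteric artery replicate 3 gave 336 and 28. The lower count was also 59 and 34 without coronary artery replicates 1 and 2, and 64 and 66 without descending aorta replicates 1 and 3. Of the 540 higher genes 280 kept their call whichever of the 12 arrays was left out, and of the 105 lower genes 11 did.

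**Figure D2:**
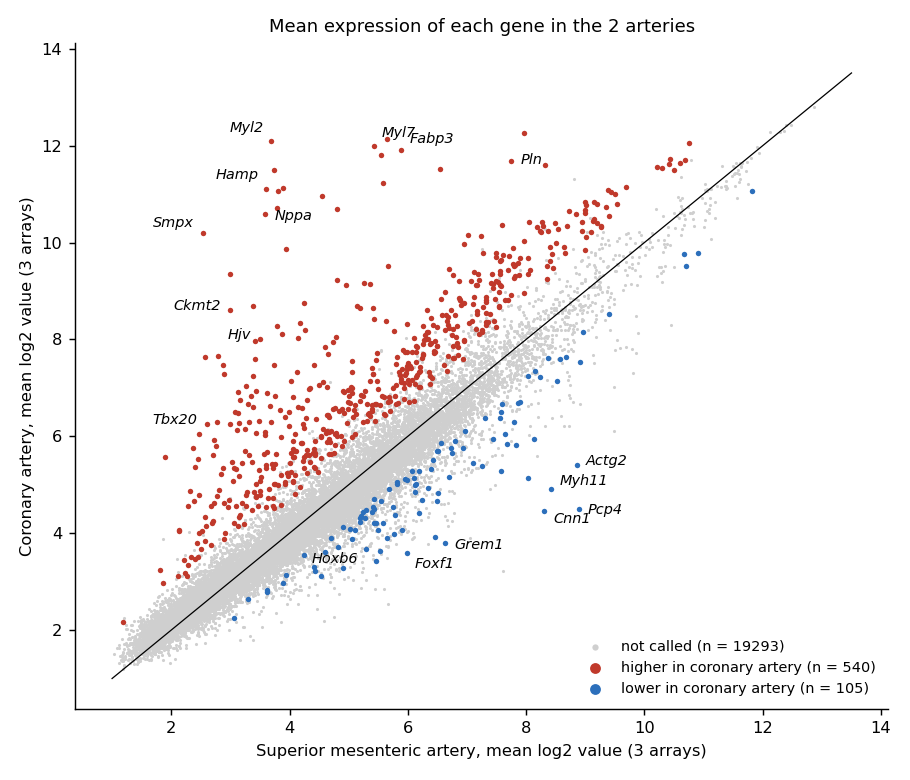
Mean log2 value of each of the 19938 genes in superior mesenteric artery (horizontal) and coronary artery (vertical), with the 540 genes called higher in coronary artery in red, the 105 called lower in blue and a line of equal values. The red points reach 8.40 log2 units above the line at Myl2, and the blue points 4.38 below it at Pcp4.

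The 15 genes with the largest differences were genes of heart or striated muscle, apart from Hamp, and none overlapped between the vessels. Myl2, the regulatory light chain of ventricular myosin, was at 12.13, 11.94 and 12.20 in the coronary arrays and at 3.37, 3.95 and 3.75 in the mesenteric arrays, a difference of 8.40 ± 0.21 (limma adjusted p = 3.68e-10). Tnnc1, the calcium-binding subunit of cardiac troponin, was at 11.52, 11.40 and 11.55 against 3.80, 3.72 and 3.69 (7.75 ± 0.54, adjusted p = 3.17e-06). All 3 coronary arrays lay far above all 3 mesenteric arrays for both genes, and the aortic means, 3.27 and 3.60 for Myl2, were as low as the mesenteric ones. The others were Smpx, a small muscle protein, at 7.66 ± 0.77, Myoz2, a Z-disc protein, at 7.26 ± 0.74, Myl3, the essential light chain of ventricular myosin, at 7.23 ± 0.43, Csrp3, a Z-disc LIM protein, at 6.92 ± 0.69, Mb, which encodes myoglobin, at 6.39 ± 0.44, Myh6, the alpha myosin heavy chain, at 6.37 ± 0.41, and Tnni3, cardiac troponin I, at 6.26 ± 0.59. Hamp, Nppa, Myl7, Cox6a2, Fabp3 and Pgam2 complete the 15 and are described with their groups. None of these 15 lost its call in any of the 28 alternative analyses.

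**Figure D3:**
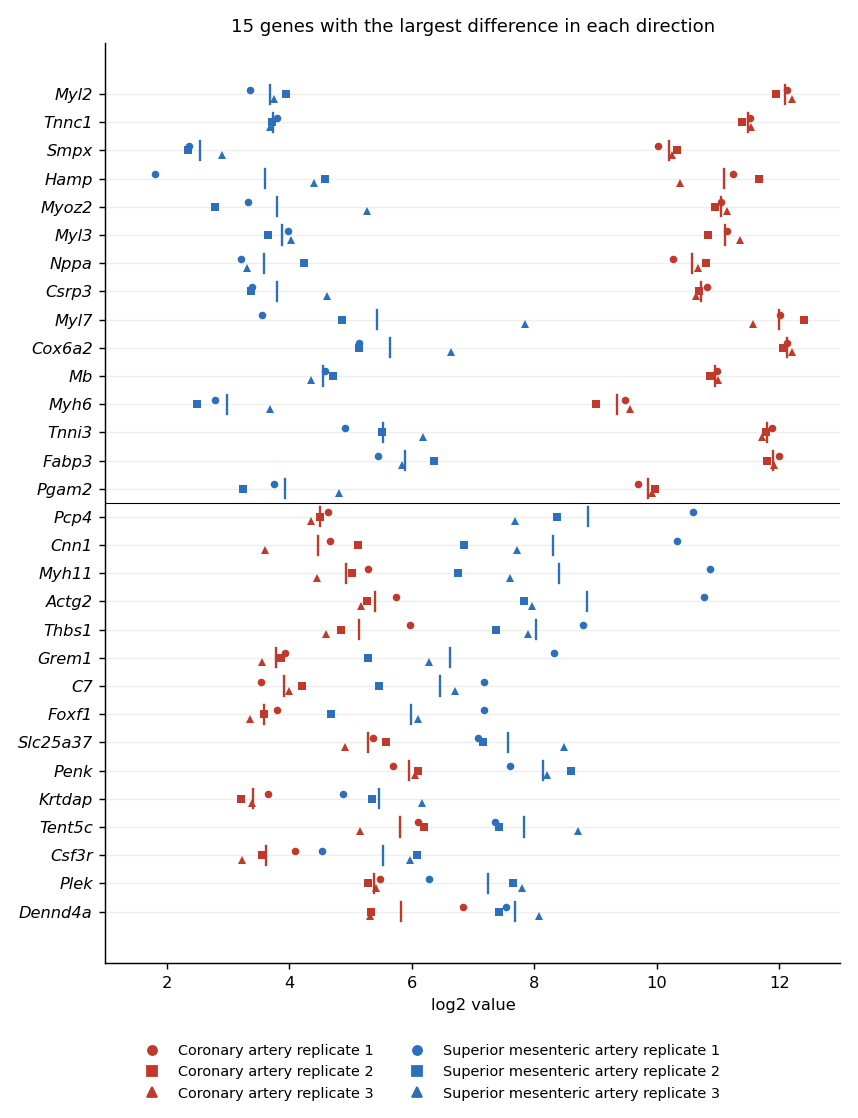
Log2 value in each of the 6 arrays for the 15 most different called genes of each direction, higher genes above the line and lower genes below, with coronary artery in red, superior mesenteric artery in blue, a symbol for each replicate and a bar at the mean. The higher genes lie between 9 and 12.4 in every coronary array, while superior mesenteric artery replicate 1 holds the highest value for 8 of the 15 lower genes.

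Genes of the sarcomere, the contractile unit of striated muscle, rose almost as a whole. Of the 31 measured members of the sarcomere and Z-disc list 28 were higher in coronary artery and 0 lower, with a median difference of 3.78, and the list averaged 8.59, 8.41 and 8.68 in the coronary arrays against 4.50, 3.81 and 4.24 in the mesenteric ones. In the descending aorta arrays it averaged 5.07, 4.05 and 3.89, so replicate 1 stood apart there, which widens the spread of some of these genes. Actc1, cardiac alpha-actin, was at 11.56, 11.37 and 11.60 against 9.39, 4.35 and 5.87, a difference of 4.97 ± 1.09 (adjusted p = 0.0258). Its level in superior mesenteric artery replicate 1 was far above that in the other mesenteric arrays, and the call was lost on omitting replicate 1, 2 or 3 of coronary artery or replicate 2 or 3 of superior mesenteric artery (adjusted p 0.0795 to 0.112, within 0.0014 to 0.446 over all alternatives). Tnnt2, cardiac troponin T, at 11.30, 11.21 and 11.42 against 10.34, 8.02 and 8.08, Myom1, a protein of the M-line, at 7.15, 6.72 and 7.51 against 6.86, 3.73 and 3.47, and Xirp1, an actin-binding repeat protein, at 5.79, 5.41 and 6.04 against 5.26, 3.76 and 4.47, were the 3 members not called. Their adjusted p was 0.0612, 0.0981 and 0.0967, and all 3 were highest among the mesenteric arrays in replicate 1. Without that array the adjusted p was 0.00744, 0.000412 and 0.0218, and 31 of 31 members were called. Over all alternatives the adjusted p ran from 0.00744 to 0.681, 0.000412 to 0.909 and 0.0169 to 0.717. Myh7, the beta heavy chain of slow and embryonic heart muscle, had the smallest difference of the list among called members, 1.09 ± 0.18.

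Some of these members share a promoter element. Serum response factor binds the CArG box, a 10-base motif, in promoters of muscle genes. In the RefSeq promoters of GRCm38.p6, taken as the 250 bases before each gene start and searched on both strands, the CArG box was present in 8 of 33 promoters of the called sarcomere members (24.2%), which belong to 6 of the 25 genes with a promoter entry, against 1.47% of all 32851 promoters. The MEF2 site, bound by another muscle regulator, was in 4 of the 33 (12.1%) against 0.508% of all promoters, and none of the 33 promoters of the called oxidative phosphorylation members held either motif. The MCAT motif, spelled CATTCC and searched on both strands, was in 30.3% against 12.6%. The GATA motif, spelled AGATAA, was in 18.2% against 9.99%, and the TATA motif, spelled TATAAA, in 12.1% against 12.4%. In the 27 promoters of the measured smooth muscle contractile genes the shares were 7.41% for the CArG box, 3.7% for the MEF2 site and 29.6% for MCAT. In the 555 promoters of all genes called higher they were 2.52%, 2.88% and 11.2%. MCAT was thus as frequent in the smooth muscle as in the sarcomere promoters. A match is a description of these letters, not of binding, and the shares were not tested. The 50 bases around the box of the 3 genes with the largest differences are shown because their boxes differ in sequence and in distance from the gene start, with the box in capitals and each on the strand of its gene.
Myl3 (chr9:110763573-110763622, plus strand; box starting 85 bases before the gene start): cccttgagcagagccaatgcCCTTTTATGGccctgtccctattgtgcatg
Myl7 (chr11:5898814-5898863, minus strand; 61 bases): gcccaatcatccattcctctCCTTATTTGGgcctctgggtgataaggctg
Actc1 (chr2:114052893-114052942, minus strand; 47 bases): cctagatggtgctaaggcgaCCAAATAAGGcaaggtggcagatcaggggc
The differences of these genes were 7.23, 6.57 and 4.97. Fhl2, Nebl and Ldb3 were the other 3 genes with a box, with differences of 4.16 ± 0.32, 3.03 ± 0.26 and 2.50 ± 0.39, and these members were chosen for their motif and not by the size of their difference.

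Marker genes of both heart chambers were higher, some of which also stand in the sarcomere list. Of 12 atrial members 8 were higher (66.7%, median 2.72) and of 10 ventricular members 8 were higher (80%, median 1.87), with 0 lower in either list. Over all genes 2.71% were higher. Myl7, the regulatory light chain of atrial myosin, was at 12.02, 12.40 and 11.57 against 3.56, 4.86 and 7.86 (6.57 ± 1.18, adjusted p = 0.00779). Its mesenteric arrays spread over more than 4 log2 units, with replicate 3 the highest, and still lay below every coronary array. Myl4, the atrial essential light chain, was at 10.68, 10.89 and 10.49 against 4.49, 4.06 and 5.85 (5.89 ± 0.74, adjusted p = 0.000557). Sln, the atrial inhibitor of the calcium pump, at 6.03, 8.47 and 6.16 against 3.19, 3.46 and 4.19 (3.27 ± 0.62, adjusted p = 0.011), was highest in coronary artery replicate 2, as were the lipid transfer protein Stard10 (8.19, 9.31 and 7.80) and the atrial potassium channel subunit Kcnj3 (5.76, 6.27 and 5.06). Among ventricular members, Smyd1, a muscle methyltransferase, differed by 2.31 ± 0.21, Lrrc10, a heart protein of the leucine-rich repeat type, by 2.28 ± 0.24, and Kcnip2, which assists the transient outward potassium current, by 1.46 ± 0.24. Myl9, the regulatory light chain of smooth muscle myosin, ran the other way, at 8.67, 8.77 and 7.44 against 11.89, 9.54 and 9.93 (-2.16 ± 0.74), but was not called (adjusted p = 0.172). It was called on omitting replicate 1 of ascending aorta (adjusted p 0.0199, within 0.00226 to 0.493 over all alternatives).

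Genes of the calcium store that triggers contraction were higher in part. Of 27 measured members of the calcium handling and excitation list 11 were higher (40.7%, against 2.71% of all genes) and 0 lower (median 0.85). Hrc, a calcium-binding protein of the store, was at 8.78, 8.46 and 9.01 against 4.54, 3.98 and 4.21 (4.51 ± 0.35, adjusted p = 8.08e-06), and Trdn, which ties the store's release channel to its buffer protein, differed by 3.84 ± 0.26. Other probe sets of Trdn gave between 0.45 and 5.86. Pln, the inhibitor of the calcium pump that cardiac and smooth muscle both express, was at 11.75, 11.56 and 11.76 against 9.89, 6.42 and 6.94 (3.94 ± 0.82, adjusted p = 0.0189). Superior mesenteric artery replicate 1, the array with the highest smooth muscle level, was also the highest mesenteric array for Pln, whose call was lost on omitting replicate 1, 2 or 3 of coronary artery or replicate 2 or 3 of superior mesenteric artery (adjusted p 0.0637 to 0.0957, within 0.00098 to 0.401 over all alternatives). Popdc2, a membrane protein of heart and skeletal muscle, followed the same order, at 8.75, 8.41 and 8.78 against 6.97, 4.28 and 4.96 (3.24 ± 0.58). Srl, a lumenal protein of the store, differed by 3.51 ± 0.31. The remaining 16 members, most of them channel subunits, were not called. Without superior mesenteric artery replicates 2 and 3 together, which leaves the array with the highest smooth muscle level, 6 members were called higher and 1 lower.

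Cardiac hormones and a hormone of iron balance were among the largest differences. Nppa, atrial natriuretic peptide, was at 10.27, 10.80 and 10.68 against 3.22, 4.24 and 3.31 (6.99 ± 0.27, adjusted p = 3.86e-08), and Nppb, its B-type relative, at 7.70, 6.28 and 7.89 against 3.43, 2.77 and 2.46 (4.40 ± 0.37, adjusted p = 1.46e-05). Neither overlapped. Corin, the protease that activates natriuretic peptides, differed by 2.06 ± 0.34, and Npr3, the receptor that clears them, by 2.56 ± 0.43. The receptors that signal through cGMP, Npr1 and Npr2, were not called, and 4 of the 9 members were higher in all (44.4%, against 2.71% of all genes). Hamp, which encodes hepcidin, the peptide that limits iron export from cells, was at 11.24, 11.66 and 10.38 against 1.81, 4.58 and 4.41 (7.50 ± 1.11, adjusted p = 0.00191). Hjv, the co-receptor that drives hepcidin transcription, was at 7.93, 8.07 and 8.01 against 3.84, 3.72 and 2.94 (4.50 ± 0.31, adjusted p = 3.17e-06). Hamp2, the near-identical copy next to Hamp in mice, differed by 2.02 ± 0.41, and cross-hybridisation between the 2 copies cannot be told apart from expression here. The Hamp2 call was lost on omitting replicate 1 or 2 of coronary artery or replicate 1 or 3 of superior mesenteric artery (adjusted p 0.0563 to 0.0746, within 0.00218 to 0.0746 over all alternatives). The other 11 measured iron members, which include ferritins, the transferrin receptor and ferroportin, were not called, and the list had a median of 0.09.

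Of 23 cardiac transcription factors 4 were higher (17.4%, against 2.71% of all genes), and these 4 kept their calls in all 28 alternatives. Tbx20, a T-box factor of heart chambers, was at 6.57, 5.74 and 6.46 against 2.53, 2.58 and 2.69 (3.66 ± 0.27, adjusted p = 5.22e-06). Tbx5, a T-box factor of atria and left ventricle, was at 5.99, 6.24 and 5.16 against 2.24, 2.88 and 3.16 (3.04 ± 0.31), Hopx, a homeodomain-only protein of the heart, differed by 2.65 ± 0.26, and Gata4, a zinc-finger activator of heart genes, by 1.95 ± 0.24. Isl1, a factor of second heart field cells that is also made in endocrine and neuronal cells, was lower in every coronary array, at 3.16, 3.61 and 3.64 against 5.93, 5.48 and 4.82, without passing (-1.94 ± 0.52, adjusted p = 0.0687). It passed on omitting replicate 1 of ascending aorta (adjusted p 0.000419, within 0.000241 to 0.197 over all alternatives). The list median was 0.31.

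**Figure D4:**
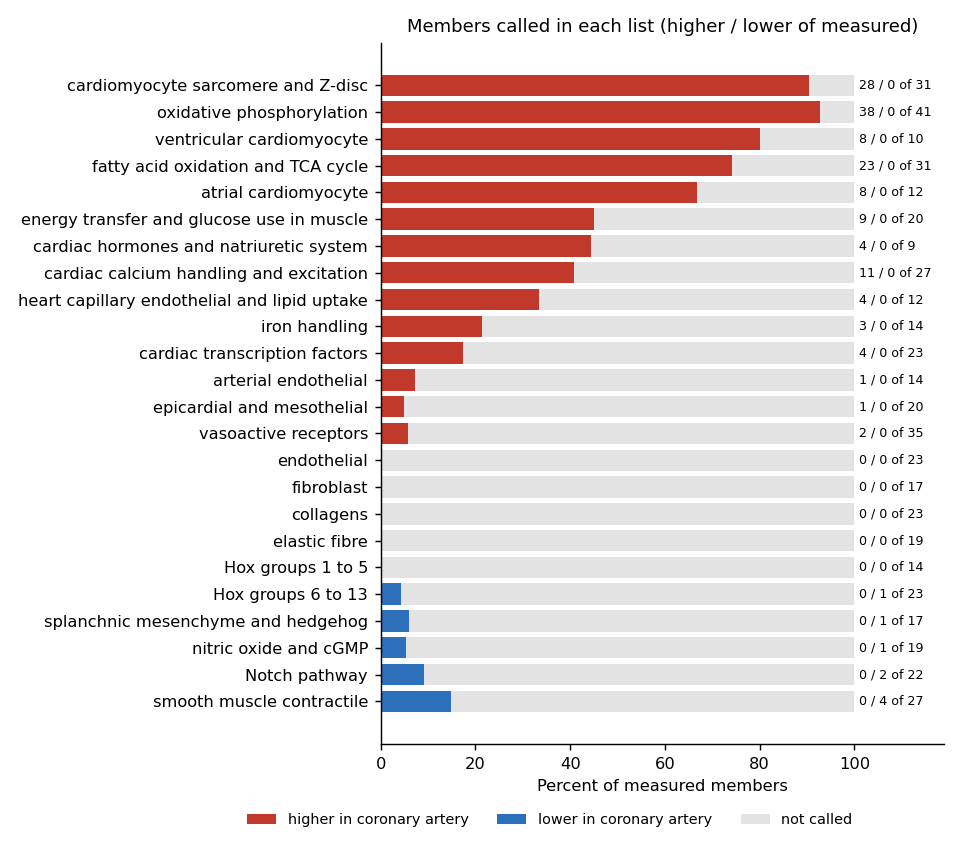
Percent of the measured members of 24 gene lists that were called higher (red) or lower (blue) in coronary artery or not called (grey), with the counts written as higher / lower of measured. The share over all genes was 2.71% higher and 0.527% lower, against 90.3% higher in the sarcomere list and 14.8% lower in the smooth muscle list.

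Genes of mitochondrial energy production were higher in coronary artery as a group, and here both aortic segments also lay above the mesenteric level. Of 41 measured oxidative phosphorylation members 38 were higher (92.7%, against 2.71% of all genes) and 0 lower (median 1.59). The list averaged 9.91, 9.90 and 10.04 in the coronary arrays, 8.06, 8.30 and 8.06 in the mesenteric arrays and 9.75, 9.91 and 9.78 in the descending aorta. In the ascending aorta it averaged 8.54, 9.46 and 9.48. Of 31 measured members of fatty acid oxidation and the citric acid cycle 23 were higher and 0 lower (median 1.49), and this list too was high in the descending aorta, at 8.67, 9.04 and 8.79. The descending aorta mean lay nearer to coronary than to superior mesenteric artery for 23 of these 23 members, and for 0 of the 28 sarcomere members. Over all genes higher in coronary artery it lay nearer to coronary artery for 268 of 540. The brown adipocyte marker Ucp1 averaged 10.93 in ascending and 11.49 in descending aorta, and was at 5.87, 5.38 and 3.05 in the coronary and 3.47, 6.82 and 3.43 in the mesenteric arrays. The brown adipocyte list, which includes Cox7a1 and Cox8b, averaged 5.42, 5.40 and 5.34 in the coronary and 4.29, 4.61 and 4.05 in the mesenteric arrays, 2 of its 13 members were higher, and its part in the mitochondrial difference was not tested. Without coronary artery replicate 3 there were 24 oxidative phosphorylation and 10 fatty acid oxidation members called, and 30 and 12 when superior mesenteric artery replicate 3 was omitted. Without mesenteric replicates 2 and 3 together there were 15 and 3.

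Single members divided the arrays in the same way. Atp5g1, a proton-channel subunit of ATP synthase, was at 11.46, 11.56 and 11.78 against 7.97, 8.54 and 8.46 (3.28 ± 0.23, adjusted p = 3.43e-06). Cycs, cytochrome c, was at 9.78, 9.81 and 9.74 against 7.17, 7.71 and 6.94 (2.51 ± 0.36, adjusted p = 0.00165), and Sdhb, the iron-sulfur subunit of complex II, differed by 2.22 ± 0.35. Every coronary array lay above every mesenteric array for these 3 genes. Other probe sets of Cycs gave 2.56 and 1.55, the latter not called in limma's test (adjusted p = 0.107). Sdhc, another subunit of complex II, differed by 0.88 ± 0.30 and was not called (adjusted p = 0.166), though it passed on omitting replicate 1 of ascending aorta (adjusted p 0.0157, within 0.0157 to 0.691 over all alternatives). Fabp3, the fatty acid binding protein of heart and muscle, was at 11.99, 11.81 and 11.91 against 5.46, 6.36 and 5.84 (6.02 ± 0.35, adjusted p = 9.05e-07), with means of 9.69 and 10.34 in the aortic segments. In the citric acid cycle the isocitrate dehydrogenases Idh2 and Idh3b differed by 2.34 ± 0.28 and 1.92 ± 0.26. In beta-oxidation Hadhb differed by 1.91 ± 0.26, and the acyl-CoA dehydrogenases Acadl and Acadm by 1.88 ± 0.31 and 1.86 ± 0.34, the latter not called on omitting replicate 3 of coronary artery (adjusted p 0.0555, within 0.000304 to 0.242 over all alternatives). Cpt1a, the carnitine transferase of liver and many other tissues, was the 1 member of the list with a difference below 0, at -0.63 ± 0.25 (adjusted p = 0.246).

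The difference reached other mitochondrial gene families, which were chosen by symbol after values had been seen. Over all genes 2.71% were higher and 0.527% lower. Of 35 complex I subunit genes 34 were higher and 0 lower, with a median of 1.71. They averaged 9.66 in coronary artery, 8.00 in superior mesenteric artery, 8.85 in ascending and 9.60 in descending aorta. Of 48 genes for the large subunit of the mitochondrial ribosome 14 were higher and 0 lower, with a median of 0.78, and of 29 for the small subunit 9 were higher and 0 lower, with a median of 0.91. The descending aorta was as high as coronary artery here, at 7.12 against 7.06 for the large and 7.03 against 6.87 for the small subunit. The ascending aorta was at 6.49 and 6.48, and superior mesenteric artery at 6.22 and 6.06. Of 57 genes of the cytosolic ribosome 1 was higher, a share near the 2.71% of all genes, and 0 lower, with a median of -0.08. That 1 gene was Rpl3l, the form of ribosomal protein L3 made in striated muscle, at 4.18 ± 0.30.

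Pairs of related forms were compared, in each of which 1 form was classed here as the muscle or heart form. That form was the one that differed most. Cox6a2, the heart and muscle form of a cytochrome oxidase subunit, was at 12.12, 12.07 and 12.20 against 5.15, 5.14 and 6.64 (6.49 ± 0.79, adjusted p = 0.000415), and its general form Cox6a1 at 10.84, 10.83 and 10.57 against 10.77, 10.61 and 10.47 (0.13 ± 0.20). Cox8b differed by 4.31 ± 0.41 and Cox8a by 0.26 ± 0.24, while Cox7a1 differed by 5.66 ± 0.55 and its general form Cox7a2 by 1.27 ± 0.27 (adjusted p = 0.0212). The Cox7a2 call was lost on omitting replicate 1, 2 or 3 of coronary artery or replicate 1 or 3 of superior mesenteric artery (adjusted p 0.052 to 0.0978, within 0.000255 to 0.195 over all alternatives). Cox7a1 and Cox8b, which brown adipocytes also make, averaged 11.12 and 12.19 in the descending aorta. Cox6a2 averaged 6.11 there, with replicate 1 at 8.34 and replicates 2 and 3 at 5.11 and 4.89. Pgam2, the muscle phosphoglycerate mutase, was at 9.70, 9.98 and 9.92 against 3.76, 3.25 and 4.81 (5.92 ± 0.41), and Pgam1 differed by -0.22 ± 0.30. Ckm, the muscle creatine kinase, differed by 3.89 ± 0.35 and Ckb, the brain form, by -1.03 ± 0.49. Ldhb, the heart lactate dehydrogenase, differed by 2.75 ± 0.39. Ldha, the skeletal muscle form, which was set here as the other form of the pair, differed by 0.08 ± 0.28. Of the other forms of the pairs only Cox7a2 was called, and the difference within each pair was not tested. Cox6a1, Cox8a, Pgam1 and Ldha changed sign in some alternatives. Ckb was called lower with the mean of the B and T cell lists as a covariate (-1.71, limma adjusted p = 0.0143). Without mesenteric replicates 2 and 3 together the Ckb difference was -2.38. Ckmt2, the mitochondrial creatine kinase of striated muscle, at 8.69, 8.32 and 8.78 against 2.97, 2.96 and 3.04 (5.61 ± 0.24, adjusted p = 5.86e-08), and Eno3, the muscle enolase, at 4.42 ± 0.33, were higher too. In the list of energy transfer and glucose use 9 of 20 members were higher (45%, against 2.71% of all genes) and 0 lower (median 1.75). Eef1a2, the translation elongation factor of muscle and neurons, was chosen after its value was seen and differed by 3.21 ± 0.24.

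**Figure D5:**
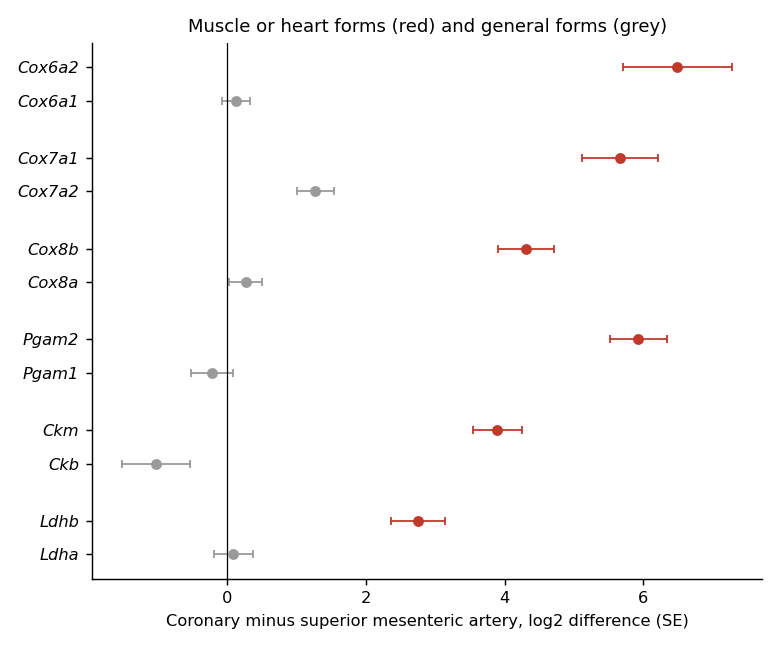
Log2 difference, coronary minus superior mesenteric artery, with its SE for the form classed as muscle or heart (red) and the other form (grey) of 3 cytochrome oxidase subunits and 3 enzymes. Ldha, drawn in grey, is the skeletal muscle form of its enzyme. The red points lie between 2.75 and 6.49, and the grey points between -1.03 and 1.27.

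General endothelial markers were not called, whereas some members of a list of heart capillary and lipid uptake genes were higher. Of 23 endothelial markers 0 were called in limma's test and the list median was -0.27. The mesenteric arrays, at 7.21, 5.63 and 6.54, lay on both sides of the coronary ones, at 6.38, 6.30 and 6.04, and the number called was 1 higher without superior mesenteric artery replicate 1, 2 lower without its replicate 2 and 1 lower without ascending aorta replicate 1. The heart capillary and lipid uptake list averaged 6.82 in coronary and 5.91 in superior mesenteric artery. Its means of 6.56 in ascending and 6.90 in descending aorta were also above the mesenteric one, so its level was not particular to the coronary arrays. Of its 12 members 4 were higher (33.3%, against 2.71% of all genes), with a median of 0.91. The count was 2 without coronary artery replicate 3, 6 without ascending aorta replicate 1 and 0 without mesenteric replicates 2 and 3 together. Gpihbp1, which carries lipoprotein lipase across capillary walls, was at 8.25, 7.93 and 8.27 against 6.77, 5.62 and 6.63 (1.81 ± 0.31, adjusted p = 0.00603), and Lpl, the lipase itself, differed by 1.46 ± 0.26. Timp4, a protease inhibitor of heart, differed by 1.59 ± 0.26, and Car4, a carbonic anhydrase on the surface of capillaries, by 1.45 ± 0.36 (adjusted p = 0.0479). The Lpl call was lost on omitting replicate 3 of coronary artery (adjusted p 0.0507, within 0.00293 to 0.116 over all alternatives). Car4 lost its call in 16 of 28 alternatives, among them on omitting replicate 3 of ascending aorta or replicate 1 or 3 of coronary artery or replicate 1, 2 or 3 of descending aorta or replicate 1, 2 or 3 of superior mesenteric artery (adjusted p 0.0619 to 0.147, within 0.0185 to 0.304 over all alternatives). Nrp1, a co-receptor for vascular growth factors, was the 1 arterial endothelial member called of 14, at 1.23 ± 0.27, and lost its call on omitting replicate 1 or 3 of coronary artery or replicate 2 or 3 of superior mesenteric artery (adjusted p 0.0725 to 0.115, within 0.00267 to 0.343 over all alternatives). The 1 arterial endothelial call of 14 members is 7.14%, against 2.71% of all genes. Tfpi, an inhibitor of coagulation made by endothelium, was higher by 1.14 ± 0.20.

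Of 20 epicardial and mesothelial genes 1 was higher (5%, against 2.71% of all genes). Tcf21, a factor of epicardium-derived fibroblasts, was at 7.99, 7.52 and 7.64 against 5.01, 5.10 and 6.33 (2.24 ± 0.44, adjusted p = 0.0133), and its call was lost on omitting replicate 1 or 3 of coronary artery or replicate 2 of superior mesenteric artery (adjusted p 0.0546 to 0.0612, within 0.000162 to 0.0612 over all alternatives). All coronary arrays lay above all mesenteric arrays for 8 of the 20, against 11.3% of all genes. Without ascending aorta replicate 1, 4 were called, and the list median was 0.69. The mesothelial markers Upk3b and Msln were at 9.51, 10.07 and 9.43 and 8.10, 8.55 and 7.91 in the coronary arrays and at 7.13, 9.20 and 9.27 and 5.97, 7.76 and 7.47 in the mesenteric arrays. Mesenteric replicate 1 was the lowest array for both, and replicates 2 and 3 came close to the coronary arrays. Thbs2, a thrombospondin of connective tissue, differed by 1.83 ± 0.37 and lost its call on omitting replicate 2 or 3 of coronary artery or replicate 2 or 3 of superior mesenteric artery (adjusted p 0.0507 to 0.0774, within 8.73e-05 to 0.208 over all alternatives). Among 35 receptors for vasoactive signals 2 were higher (5.71%, against 2.71% of all genes). Chrm2, the muscarinic receptor of the heart, was at 5.44, 5.46 and 5.46 against 3.14, 3.09 and 3.38 (2.25 ± 0.29, adjusted p = 0.000706), and Agtr1a, the angiotensin receptor, differed by 1.01 ± 0.22. The Agtr1a call was lost on omitting replicate 1 or 3 of coronary artery or replicate 2 or 3 of superior mesenteric artery (adjusted p 0.0709 to 0.115, within 0.0087 to 0.303 over all alternatives). Egln1, an oxygen-sensing hydroxylase, differed by 1.46 ± 0.23.

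In the other direction, 4 of 27 members of the smooth muscle contractile list were lower in coronary artery (14.8%, against 0.527% of all genes) and 0 were higher. Pcp4, a small calmodulin regulator, had the largest difference of all lower genes, at 4.63, 4.51 and 4.36 against 10.60, 8.37 and 7.69 (-4.38 ± 0.56, adjusted p = 0.000637). Its aortic means, 4.51 and 4.38, were as low as the coronary ones, so the mesenteric arrays were the high ones. In the aortic segments Pcp4 thus did not follow the list, which averaged 7.36 and 7.04 there. Cnn1, the calponin of differentiated smooth muscle, was at 4.67, 5.12 and 3.61 against 10.34, 6.85 and 7.72 (-3.84 ± 0.84, adjusted p = 0.0255). Myh11, the smooth muscle myosin heavy chain, was at 5.29, 5.02 and 4.45 against 10.87, 6.75 and 7.61 (-3.49 ± 0.84, adjusted p = 0.0426). Actg2, the gamma actin of visceral smooth muscle, was at 5.74, 5.27 and 5.17 against 10.77, 7.84 and 7.96 (-3.46 ± 0.69, adjusted p = 0.0149). In all 4 genes mesenteric replicate 1 was the highest array by more than 2 log2 units, and the groups did not overlap. Myh11 and Cnn1 averaged 7.99 and 8.23 in the descending aorta, nearer to the mesenteric than to the coronary mean.

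The call of Pcp4, which was low in both aortic segments, held in all 28 alternatives, and those of the other 3 did not. Cnn1 was lost on omitting replicate 1, 2 or 3 of coronary artery or replicate 1 or 3 of superior mesenteric artery (adjusted p 0.0546 to 0.14, within 0.000476 to 0.14 over all alternatives), Actg2 on omitting replicate 2 or 3 of coronary artery (adjusted p 0.0618 to 0.0786, within 0.000162 to 0.0786 over all alternatives), and Myh11 in 13 of 28 alternatives, among them on omitting replicate 2 of ascending aorta or replicate 1, 2 or 3 of coronary artery or replicate 1, 2 or 3 of descending aorta or replicate 3 of superior mesenteric artery (adjusted p 0.0527 to 0.185, within 0.00135 to 0.185 over all alternatives). Of the list, 18 of 27 members had all coronary arrays below all mesenteric arrays, against 11.1% of all genes, and the median difference was -1.54. Acta2, smooth muscle alpha-actin, was at 7.97, 7.96 and 7.22 against 11.60, 8.72 and 9.23 (-2.14 ± 0.63) and Tagln, an actin-binding protein of smooth muscle, differed by -2.60 ± 0.76, with adjusted p of 0.105 and 0.103. Both passed without ascending aorta replicate 1 (adjusted p 0.0323 and 0.0143), and Acta2 also without superior mesenteric artery replicate 2 (0.0484). Over all alternatives the adjusted p ran from 0.00381 to 0.346 for Acta2 and from 0.000803 to 0.336 for Tagln. The number of lower members was 13 without ascending aorta replicate 1, fell to 1 on omitting coronary artery replicate 2 or 3, and was 2 without coronary artery replicate 1 or superior mesenteric artery replicate 3 and 6 without superior mesenteric artery replicate 2. With the mean of the B and T cell lists as a covariate it was 21, and without mesenteric replicates 2 and 3 together, where the lone array is assumed to vary like the others, it was 16.

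The remaining genes with the largest lower values had various roles. Thbs1, a matrix thrombospondin, was at 5.97, 4.84 and 4.61 against 8.80, 7.38 and 7.91 (-2.89 ± 0.55, adjusted p = 0.011). Foxf1, a forkhead factor of the mesenchyme around the gut, was at 3.80, 3.59 and 3.36 against 7.18, 4.68 and 6.10 (-2.40 ± 0.45, adjusted p = 0.0111). Both were lower in every coronary array, and Foxf1 varied over more than 2 log2 units among the mesenteric arrays. Grem1, a secreted BMP antagonist, was at 3.94, 3.87 and 3.56 against 8.32, 5.28 and 6.28 (-2.84 ± 0.70, adjusted p = 0.0479), and C7, a complement component made by fibroblasts, differed by -2.54 ± 0.47. Slc25a37, the mitochondrial iron importer of erythroid cells, was at 5.38, 5.58 and 4.90 against 7.08, 7.16 and 8.49 (-2.29 ± 0.40), while the erythroid gene Alas2, at 6.25, 7.18 and 5.19 against 8.09, 8.22 and 9.87, was not called (adjusted p = 0.106). Alas2 passed in 4 of 28 alternatives, among them without ascending aorta replicate 1 (limma adjusted p 0.0119) and with only the 6 arrays of the 2 vessels (0.0486). Penk, the enkephalin precursor, differed by -2.19 ± 0.53, Krtdap, a keratinocyte protein, by -2.05 ± 0.43, Tent5c, a poly(A) polymerase of plasma cells, by -2.02 ± 0.43, and Dennd4a, an exchange factor for Rab proteins, by -1.85 ± 0.46. Other probe sets gave -1.04 for Foxf1 (adjusted p = 0.0856) and between -0.63 and -1.47 for Dennd4a. Csf3r, the granulocyte colony-stimulating factor receptor, at 4.10, 3.56 and 3.23 against 4.54, 6.08 and 5.97, and Plek, a platelet and leukocyte protein, at 5.48, 5.29 and 5.41 against 6.28, 7.66 and 7.80, were higher in mesenteric replicates 2 and 3 than in replicate 1, the order also seen in the B cell and macrophage lists.

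Many of these lower calls were lost when 1 array was left out, which also leaves fewer arrays for the estimate of spread. Omitting an aortic array alters only that estimate, so the Penk difference stayed at -2.19 without descending aorta replicate 1. Thbs1 was lost on omitting replicate 2 or 3 of coronary artery (adjusted p 0.0553 to 0.0716, within 0.000944 to 0.0716 over all alternatives), Foxf1 on omitting replicate 3 of coronary artery or replicate 3 of superior mesenteric artery (adjusted p 0.0516 to 0.0663, within 0.000206 to 0.0663 over all alternatives) and C7 on omitting replicate 3 of superior mesenteric artery (adjusted p 0.05, within 0.000123 to 0.05 over all alternatives). Krtdap was lost on omitting replicate 1, 2 or 3 of coronary artery or replicate 2 or 3 of superior mesenteric artery (adjusted p 0.0526 to 0.101, within 0.000712 to 0.31 over all alternatives), Tent5c on omitting replicate 3 of coronary artery or replicate 3 of superior mesenteric artery (adjusted p 0.0876 to 0.117, within 0.00687 to 0.222 over all alternatives) and Csf3r on omitting replicate 2 or 3 of coronary artery or replicate 2 or 3 of superior mesenteric artery (adjusted p 0.0743 to 0.112, within 0.00166 to 0.418 over all alternatives). Dennd4a lost its call in 18 of 28 alternatives, among them on omitting replicate 3 of ascending aorta or replicate 2 or 3 of coronary artery or replicate 1, 2 or 3 of descending aorta or replicate 1, 2 or 3 of superior mesenteric artery (adjusted p 0.0607 to 0.219, within 0.00861 to 0.314 over all alternatives). Penk lost it in 15, among them on omitting replicate 1, 2 or 3 of coronary artery or replicate 1, 2 or 3 of descending aorta or replicate 1, 2 or 3 of superior mesenteric artery (adjusted p 0.0501 to 0.147, within 0.00011 to 0.419 over all alternatives), Grem1 in 14, among them on omitting replicate 3 of ascending aorta or replicate 1, 2 or 3 of coronary artery or replicate 1, 2 or 3 of descending aorta or replicate 1 or 3 of superior mesenteric artery (adjusted p 0.0501 to 0.186, within 0.00565 to 0.186 over all alternatives), and Plek in 12, among them on omitting replicate 1, 2 or 3 of coronary artery or replicate 3 of descending aorta or replicate 2 or 3 of superior mesenteric artery (adjusted p 0.0568 to 0.149, within 0.00359 to 0.536 over all alternatives). Pcp4, Atp2a3, H6pd and Esyt1 were the 4 lower genes that passed in all 28 alternatives, the last 3 being named for that after their values were seen. Atp2a3, a calcium pump of blood and endothelial cells, was at 4.24, 3.73 and 3.75 against 5.72, 5.31 and 5.92 (-1.74 ± 0.27, adjusted p = 0.00247). H6pd, a dehydrogenase of the endoplasmic reticulum, differed by -1.13 ± 0.20, and Esyt1, a tether of the endoplasmic reticulum to the plasma membrane, by -1.12 ± 0.19.

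Of the 37 measured Hox genes, which mark position along the trunk, 1 was called, Hoxb6, and it was lower in coronary artery. Over all genes 3.24% were called in either direction. Hoxb6 was at 3.92, 3.81 and 3.29 against 5.52, 4.46 and 5.88 (-1.61 ± 0.33, adjusted p = 0.0179), with a mean of 5.86 in the descending and 4.18 in the ascending aorta. The 2 groups of Hoxb6 did not overlap, and its call was lost on omitting replicate 2 or 3 of coronary artery or replicate 1 or 3 of superior mesenteric artery (adjusted p 0.0536 to 0.103, within 0.00187 to 0.103 over all alternatives). Hoxb5 was at 2.83, 3.65 and 3.69 against 6.27, 4.33 and 4.66 (-1.70 ± 0.44, adjusted p = 0.0595), Hoxa5 at 4.14, 3.62 and 2.56 against 5.22, 4.75 and 4.65 (-1.44 ± 0.39, adjusted p = 0.0758) and Hoxb2 at 3.71, 3.94 and 3.53 against 4.92, 4.11 and 4.60 (-0.82 ± 0.21, adjusted p = 0.0613). All 3 were lower in every coronary array. Without ascending aorta replicate 1 all 3 passed (adjusted p 0.0311, 0.0196 and 0.0394), without superior mesenteric artery replicate 2 Hoxb5 and Hoxb2 passed (0.0315 and 0.0201), and without coronary artery replicate 1 Hoxa5 passed (0.0443). Over all alternatives the adjusted p ran from 0.00759 to 0.2, 0.0196 to 0.288 and 0.0201 to 0.234. Of the 14 measured genes of groups 1 to 5 none was called in limma's test, and the median was -0.39. All coronary arrays lay below all mesenteric arrays for 6 of the 14, against 11.1% of all genes. Of the 23 of groups 6 to 13, 1 was called and the median was 0.01.

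Some signalling genes were lower too. Ddah1, the enzyme that breaks down methylated arginines blocking nitric oxide synthesis, was at 4.74, 5.04 and 4.21 against 6.54, 5.85 and 7.06 (-1.82 ± 0.35, adjusted p = 0.011). It was the 1 member called of 19 in the nitric oxide and cGMP list (5.26%, against 0.527% of all genes). In the Notch pathway 2 of 22 were lower (9.09%, against 0.527% of all genes). Mfng, which modifies Notch receptors with sugars, differed by -1.22 ± 0.24, and Nrarp, a target gene and feedback inhibitor of Notch, by -1.11 ± 0.20. Procr, the endothelial receptor of protein C, differed by -1.54 ± 0.28, and Pfkfb3, an activator of glycolysis, by -0.76 ± 0.17 (adjusted p = 0.0341). Ddah1 was lost on omitting replicate 3 of coronary artery or replicate 3 of superior mesenteric artery (adjusted p 0.0564 to 0.0698, within 0.00293 to 0.0698 over all alternatives), Mfng on omitting replicate 1 or 3 of coronary artery or replicate 3 of superior mesenteric artery (adjusted p 0.0507 to 0.0804, within 0.00457 to 0.248 over all alternatives) and Procr on omitting replicate 3 of superior mesenteric artery (adjusted p 0.0503, within 0.000409 to 0.0617 over all alternatives). Pfkfb3 was lost in 16 of 28 alternatives, among them on omitting replicate 1, 2 or 3 of coronary artery or replicate 1 of descending aorta or replicate 1, 2 or 3 of superior mesenteric artery (adjusted p 0.0527 to 0.113, within 0.0235 to 0.113 over all alternatives).

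Several matrix, immune and tissue lists had no member called. No member was called among 17 fibroblast markers, 23 collagens (median -0.30) and 19 elastic fibre genes (median -0.22). Lox, which cross-links elastin and collagen, was at 4.38, 4.30 and 3.73 against 6.13, 5.11 and 6.36 (-1.73 ± 0.53, adjusted p = 0.121) and passed on omitting replicate 1 of ascending aorta (adjusted p 0.00327, within 0.00226 to 0.377 over all alternatives). In the immune lists 0 of 15 B cell, 0 of 15 T cell and 0 of 21 macrophage and antigen presentation genes were called, with medians of -1.95, -0.54 and -0.87. Jchain, the joining chain of secreted antibodies, was at 3.10, 3.24 and 3.31 against 7.64, 8.05 and 7.13 (-4.39 ± 1.20, adjusted p = 0.075), with no overlap, and passed on omitting replicate 1 of ascending aorta (adjusted p 1.93e-07, within 1.93e-07 to 0.337 over all alternatives). Without that aortic array 6 B cell, 2 T cell and 4 macrophage members and 2 elastic fibre members were called lower, and 5 macrophage members when superior mesenteric artery replicate 1 was omitted. Of 19 pancreatic acinar genes 0 were called, and Cpb1, a pancreatic carboxypeptidase, was at 2.36, 2.18 and 3.06 against 4.48, 2.70 and 9.79, high in mesenteric replicate 3 only. Wnt pathway, pericyte, Schwann cell, sympathetic neuron, mast cell, skeletal muscle and intestinal lists also had 0 members called and at most 2 in either direction without any 1 array, in a limma test that called 3.24% of all genes and 2946 genes at an unadjusted p under 0.05. Xist was at 7.28, 6.93 and 6.67 in the coronary and 8.36, 7.56 and 7.71 in the mesenteric arrays, and the Y-linked Uty at 2.17, 2.16 and 2.30 and 1.88, 1.58 and 1.87, and neither gene was called.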

How the data were processed

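Total RNA from 4 mouse vessels, 3 arrays each, was hybridised to Affymetrix arrays. The deposited log2 expression values of the authors were used unchanged; the submitters' processing notes name RMA and Partek 6.6, without their role or order. Groups came from the sample labels. Of 35556 probe sets, 21789 had 1 gene symbol in the platform annotation, 1621 several and 12146 none; the probe set with the highest mean stood for each of 19938 genes, 999 of which had several. In limma 3.58.1 (R 4.3.3), 4 vessel means were fitted over 12 arrays with 8 residual degrees of freedom, and coronary was tested against superior mesenteric artery with Benjamini-Hochberg adjustment over all genes at 0.05. The fit was tested on simulated data. Named genes are the 15 largest called differences in each direction, up to 6 called members of each of 51 lists (or up to 3 uncalled), every called Hox gene, and Myl2, Myl7 and Myl9. Outside this rule, Acta2, Actc1, Cpt1a, Kcnj3, Msln, Myh7, Myom1, Npr1, Npr2, Sdhc, Tagln, Tnnt2, Ucp1, Upk3b, Xirp1, Rpl3l, Eef1a2, Atp2a3, H6pd, Esyt1, the other forms of the pairs Ckb, Cox6a1, Cox7a2, Cox8a, Ldha and Pgam1, and the CArG box genes Fhl2, Ldb3 and Nebl were chosen after their values were seen. The genes, lists and rules were chosen with earlier results of these data known. Promoters came from RefSeq (GRCm38.p6), in which 21698 probe set gene identifiers matched. Alternatives changed the scaling, filter, probe rule, variance model, threshold, covariate, block and arrays used. Figures were drawn with the package matplotlib 3.10.9 in Python 3.11.15.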

Additional observations from a re-analysis of the deposited data

How the results depend on the processing

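Under 28 alternatives the counts of 540 higher and 105 lower genes moved most with the array set. Leaving out 1 array at a time gave 295 to 835 higher and 19 to 457 lower genes, and 180 higher and 4 lower genes were called in every alternative. Lower genes numbered 358 with array weights, 160 with weights per vessel, 319 with the mean of the B and T cell lists as a covariate, 69 when adjusted over the 6 vessel pairs together and 58 at 2-fold or more. At a threshold of 0.01 there were 290 and 13. Without superior mesenteric artery replicates 2 and 3 together, an alternative added after the data were seen in which the lone array is assumed to vary like the other groups, there were 230 higher and 124 lower genes, 212 and 16 of them shared with the calls over all arrays. The cause of these moves was not tested. Same-numbered arrays of the 2 vessels did not deviate together (correlations of 0.01 to 0.03, against -0.05 to 0.02 for other numbers), and the replicate block gave 537 and 97 genes, 486 and 77 of them shared with the fit without it. Some genes that were not called changed sign. Cox6a1 was at -0.0615 with the covariate and -0.0278 without mesenteric replicates 2 and 3, Cox8a at -0.0341 with the covariate, and Ldha at -0.0103 with array weights and -0.203 with the covariate. Leaving out 1 array gave -0.407 to 0.0269 for Pgam1 (0.0269 without coronary artery replicate 3) and -0.0781 to 0.213 for Ldha (-0.0781 without coronary artery replicate 3 and -0.0579 without superior mesenteric artery replicate 1). The number of arrays limits the precision, and detection calls were not used.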
